A study of Mus musculus with 89 samples.

Results

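The comparison concerned untreated mouse squamous cell carcinoma and set segments lying within the tumour against segments lying in the stroma around it. Members were taken by the authors' annotation of slide and location, which places 14 segments within the tumour and 15 in the stroma, 29 of the 89 segments of the series. Both classes came from 1 slide of spontaneous tumours, annotated as naive, and were collected on 1 plate. The other class of that slide is the interface of tumour and stroma, with 13 segments, and it is used here as the nearest neighbour of the tumour class. The 42 naive segments are the untreated ones of the series. The scan of the slide carries the words naive UP HRass, which the annotation does not explain. Strain, age, sex and the number of animals are not given in the sources used here, so segments were the unit of replication. Segments of 1 slide share animals and tumours, and every p-value over segments below is too small for that reason.

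Each segment is a region of a frozen section chosen on a stained image and lit with ultraviolet light, which frees the sequencing tags of a panel of RNA probes (GeoMx, mouse whole transcriptome, 19962 targets). The labels call every segment neutrophil. The annotation's tags were Neu, Cancer, Neu for all 14 tumour segments and Neu, Neu for all 15 stroma segments. Its field mixed was Y for all 14 tumour segments and empty for all 15 stroma segments. A segment can hold several cells, so the values describe small regions and not sorted cells. In such data fewer cells of a type and less RNA per cell cannot be told apart.

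In squamous carcinoma, nests of keratinocytes are set in a stroma of fibroblasts, vessels and leukocytes. Fibroblasts lay down fibrillar collagen, in which type I and type III chains are the bulk, and bind it with small proteoglycans such as decorin and lumican. Macrophages of the stroma are known for complement C1q, apolipoprotein E, lysosomal proteases and antigen presentation. Neutrophils are known for the alarmins S100a8 and S100a9 and for Ly6g.

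Levels are given as shares, the counts of a target above the deposited floor of 1 count, per 10000 such counts of the segment. Differences are those of log2(share + 1) with log2 depth as a covariate, within tumour minus stroma, tested with limma and called at a Benjamini-Hochberg adjusted p under 0.05. This scale understates the change of low targets. Of 19962 targets, 2245 exceeded the limit of quantitation, a threshold set from negative probes, in at least 20% of the 29 segments and were tested. Targets with few counts within the tumour passed that filter through the stroma. Counts of called targets below, and the signs and medians of gene lists, therefore describe the tested targets only. The lists were chosen with earlier results of these data known, so a list median beside that of all tested targets is no test of the list.

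The tumour segments were smaller and gave fewer counts, in part through piece 1. Depth, the sum of counts above the floor, had a median of 4438.5 within the tumour (796 to 34772) and 10736 in the stroma (3124 to 96548). Area, in the annotation's unit, was smaller within the tumour, with a median of 1623 (338 to 10129) against 4138 (1647 to 11864), a log2 difference of -1.66 (permutation test, two-sided, adjusted p = 0.00048). Nuclei had medians of 67.5 within the tumour and 59 in the stroma, and their log2 difference of -0.35 did not pass (permutation test, adjusted p = 0.361). Depth per nucleus was lower within the tumour, with a median of 118 counts (28.3 to 214) against 219 (55.8 to 849), a log2 difference of -1.23 (permutation test, adjusted p = 0.0184). Without the 6 segments of piece 1 the log2 difference was -0.996 for area (permutation test, adjusted p = 0.0503), -0.92 for depth per nucleus (adjusted p = 0.174) and -0.53 for depth (adjusted p = 0.451), and none of them passed. A target with 0 counts could have had a share of up to 37.7 per 10000 in the shallowest tumour segment and 0.863 in the deepest, taking 3 counts as the limit that 0 allows. The median limit was 6.76 within the tumour and 2.79 in the stroma. Several targets below have stromal medians under that tumour limit, C1qc at 3.20 among them, so a 0 in 1 tumour segment says little for them. These limits cover counting error only. No 2 of the 29 segments held identical counts.

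Scan coordinates placed the 42 naive segments in 5 groups of neighbours, called tissue pieces here; the annotation does not say whether a piece is a section, a tumour or an animal. Tissue piece 1 held 3 tumour and 3 stroma segments, piece 2 held 2 tumour segments and no stroma, piece 3 held 6 stroma segments and no tumour, piece 4 held 7 tumour and 2 stroma segments, and piece 5 held 2 and 4. Class and piece were therefore mixed unevenly. Differences given inside a piece are differences of mean log2(share + 1) with no depth covariate, unlike the fitted differences. The 2 stroma segments of piece 4 and the 3 tumour segments of piece 1 stand apart from the rest of their class in many results below.

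Within the tumour 83 targets were lower and 17 were higher than in the stroma, 100 of 2245 or 4.45% of those tested. The falls were 3.7% and the rises 0.757% of tested targets. The largest falls were those of fibrillar collagen, with Col3a1 and Col1a1 first, then the lipoprotein Apoe, the class I light chain B2m and the collagen Col1a2. The largest rises were those of Clec2j, Sesn3 and the chitinase-like Chil4. No tested target separated the classes without overlap (0 of 2245), and the median difference of all tested targets was -0.03. With tissue piece as a fixed block, 2 targets passed, Col1a1 at -2.83 (limma adjusted p = 0.0299) and Col3a1 at -3.77 (limma adjusted p = 0.00242). All fixed-block fits here held only pieces 1, 4 and 5, which have both classes. They left out the 2 tumour segments of piece 2 and the 6 stroma segments of piece 3, so they also rest on fewer segments. With piece as a random block over all segments 78 passed, all among the 100. Without piece 4 the count was 28, of which 27 were among the 100, and without piece 3 it was 59, of which 50 were. By direction, 27 were lower and 1 was higher without piece 4, and 56 were lower and 3 higher without piece 3. The 1 higher target without piece 4 was Krt14, which is not among the 100, so none of the 17 rises passed there. On the deposited normalised signal with the same covariate the split was 10 higher and 142 lower and the median of all tested targets was -0.14, and without the covariate it was 6 and 185 with a median of -0.13.

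**Figure D1:**
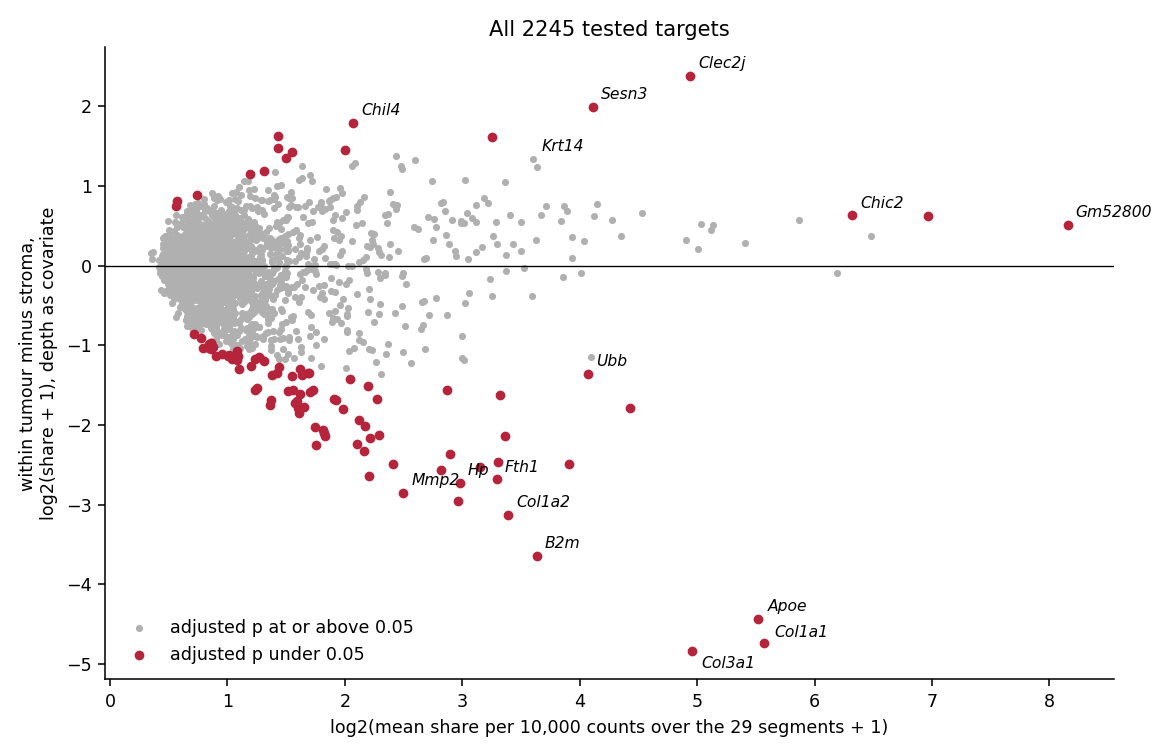
Each point is 1 of the 2245 tested targets; the x axis is log2 of its mean share per 10000 counts over the 29 segments plus 1, and the y axis is the difference within tumour minus stroma of log2(share + 1), with depth as a covariate. The red points are the 100 targets with a limma adjusted p under 0.05, of which 83 lie below 0 and 17 above, with Col3a1, Col1a1 and Apoe lowest.

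The promoters of 5 of the called genes are shown because they belong to the groups that fell together below, class I presentation and fibrillar collagen. They are taken from RefSeq on GRCm38.p6, run 5′ to 3′ on the gene's strand from 250 bases before to 50 bases after the annotated start, and were found for B2m (chr2:122147437-122147736, plus strand), H2-D1 (chr17:35262844-35263143, plus strand), H2-K1 (chr17:34000298-34000597, minus strand, 1 of 2 listed starts), Col1a2 (chr6:4505368-4505667, plus strand) and Col3a1 (chr1:45311288-45311587, plus strand). Capitals mark matches on either strand to CCAAT and TATAAA, and in H2-D1 and H2-K1 also the longest run of letters that those promoters share; no match overlaps another.
B2m: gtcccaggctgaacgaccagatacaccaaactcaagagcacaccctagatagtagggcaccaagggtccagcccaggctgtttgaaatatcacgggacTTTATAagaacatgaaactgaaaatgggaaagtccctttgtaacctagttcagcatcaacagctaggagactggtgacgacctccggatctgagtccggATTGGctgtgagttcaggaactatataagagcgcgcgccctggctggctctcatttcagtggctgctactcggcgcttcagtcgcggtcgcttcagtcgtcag
H2-D1: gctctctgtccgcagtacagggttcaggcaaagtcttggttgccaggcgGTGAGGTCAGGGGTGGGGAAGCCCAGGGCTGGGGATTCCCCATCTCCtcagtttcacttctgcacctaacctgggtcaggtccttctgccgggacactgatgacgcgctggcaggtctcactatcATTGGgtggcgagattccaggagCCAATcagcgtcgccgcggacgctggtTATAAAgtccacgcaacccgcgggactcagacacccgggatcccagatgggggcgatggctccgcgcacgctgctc
H2-K1: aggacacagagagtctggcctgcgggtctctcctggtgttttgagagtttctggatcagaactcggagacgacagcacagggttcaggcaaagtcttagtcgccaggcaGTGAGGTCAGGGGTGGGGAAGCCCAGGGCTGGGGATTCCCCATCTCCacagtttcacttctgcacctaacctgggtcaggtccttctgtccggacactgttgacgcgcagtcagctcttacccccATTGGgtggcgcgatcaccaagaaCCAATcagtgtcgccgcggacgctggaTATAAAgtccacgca
Col1a2: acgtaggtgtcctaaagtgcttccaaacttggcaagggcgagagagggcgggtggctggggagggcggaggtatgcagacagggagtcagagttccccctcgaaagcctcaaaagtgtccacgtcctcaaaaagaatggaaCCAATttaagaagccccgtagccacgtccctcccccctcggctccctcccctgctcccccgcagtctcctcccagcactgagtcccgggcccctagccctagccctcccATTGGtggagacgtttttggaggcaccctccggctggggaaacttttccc
Col3a1: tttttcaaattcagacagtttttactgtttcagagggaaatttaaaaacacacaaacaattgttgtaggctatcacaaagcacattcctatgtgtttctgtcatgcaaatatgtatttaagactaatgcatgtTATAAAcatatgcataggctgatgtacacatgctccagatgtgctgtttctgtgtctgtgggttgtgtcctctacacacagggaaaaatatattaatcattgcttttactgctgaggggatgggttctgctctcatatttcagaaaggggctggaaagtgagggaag
The shared run of H2-D1 and H2-K1 is 47 bases long, and no other promoter of the 32851 in the table holds it than those of these 2 genes (3 entries, as H2-K1 has 2). Between any other pair of the 5 promoters the longest shared run was 7 to 9 bases. CCAAT, the letters of the box bound by nuclear factor Y, was found once in B2m and at 2 places each in H2-D1, H2-K1 and Col1a2, and 37.4% of promoters hold it. TATAAA was found in B2m, H2-D1, H2-K1 and Col3a1, and 13.6% of promoters hold it. The segments measure RNA and bear on none of these letters directly, and Col1a1 is named only.

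The fibrillar collagens Col3a1 and Col1a1 had the lowest differences of all tested targets. Col1a1 encodes the main chain of type I collagen (chromosome 11, 94936224 to 94953042, GRCm38). Its share was 4.85 to 155 per 10000 in the stroma, with a median of 84.3, and 0 to 31.2 within the tumour, with a median of 1.47. In counts this was 2961 over the stroma segments and 34 over the tumour segments. The classes overlapped at their ends, where 3 stroma segments lay at or below the highest tumour segment. The fitted difference was -4.73 ± 0.45 (SE; limma adjusted p = 1.35e-16). Col3a1, the type III chain (chromosome 1, 45311538 to 45349706), had shares of 2.87 to 115 in the stroma with a median of 59.97, and of 0 to 27.5 within the tumour with a median of 0.288. It was at 0 in 7 of 14 tumour segments and above 0 in all 15 stroma segments, and its difference was -4.83 ± 0.49 (limma adjusted p = 4.01e-15).

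Col1a2, the second chain of type I collagen, had a median of 15.6 in the stroma and was at 0 in 9 of 14 tumour segments, with a highest value there of 2.49. It fell by 3.13 ± 0.50 on the log2 scale (limma adjusted p = 9.95e-07). Of the 13 collagens in the list of fibrillar and interstitial chains, 9 were tested, 3 were lower and 6 did not pass. The median of the 9 was -0.82 against -0.03 for all tested targets. Summed over the list, the share was 16.2 to 331 in the stroma and 0 to 41.3 within the tumour, where the panel average for 13 targets would be 6.51.

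The 2 stroma segments of piece 4 held the lowest collagen of their class. Their Col1a1 shares were 4.85 and 11.5, and the next lowest stroma segment held 20.97. Inside piece 4 the 7 tumour segments ran from 0 to 4.42 for Col1a1, and the difference of mean log2(share + 1) was -1.73, against -3.63 in piece 1 and -3.37 in piece 5. The same values for Col3a1 were -1.51 in piece 4, -4.35 in piece 1 and -5.66 in piece 5. Both collagens were thus lower within the tumour in each piece that holds both classes, by an amount that varied between pieces; whether the amounts differ was not tested.

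Other products of fibroblasts fell as well. Of 20 fibroblast identity and matrix genes on the panel, 14 were tested, 8 were lower and 6 did not pass, with a median difference of -1.39. The 8 were Sparc, Bgn, Postn, Dpt, Igfbp4, Dcn, Lum and Fbln2. Sparc, a collagen-binding matrix protein, had a stromal median of 15.6 and a highest tumour value of 1.39, a difference of -2.95 ± 0.48 (limma adjusted p = 1.34e-06). The proteoglycans Bgn, Dcn and Lum had 274, 208 and 182 counts in the stroma and 2, 2 and 5 counts within the tumour, with differences of -2.49, -2.06 and -1.80. Dpt, a dermatopontin that binds decorin, had 138 counts in the stroma and 0 within the tumour, where 3 counts of the pooled depth would be a share of 0.249. Postn, a matrix protein of activated fibroblasts, had 314 and 12 counts and a difference of -2.56; inside piece 4 its difference was 0.14.

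Enzymes that cut matrix followed for 2 members. Of 16 matrix proteases and inhibitors, 6 were tested and 2 were lower, the gelatinase Mmp2 at -2.85 ± 0.45 (limma adjusted p = 6.8e-07) and the membrane collagenase Mmp14 at -1.61. Mmp2 had 304 counts in the stroma, where 14 of 15 segments were above 0, and 1 count within the tumour. Of 16 collagen processing genes 5 were tested and none passed, with a median of -0.54. In the basement membrane list 4 of 13 were tested and the type IV chain Col4a2 was lower at -1.54 (100 against 2 counts).

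**Figure D2:**
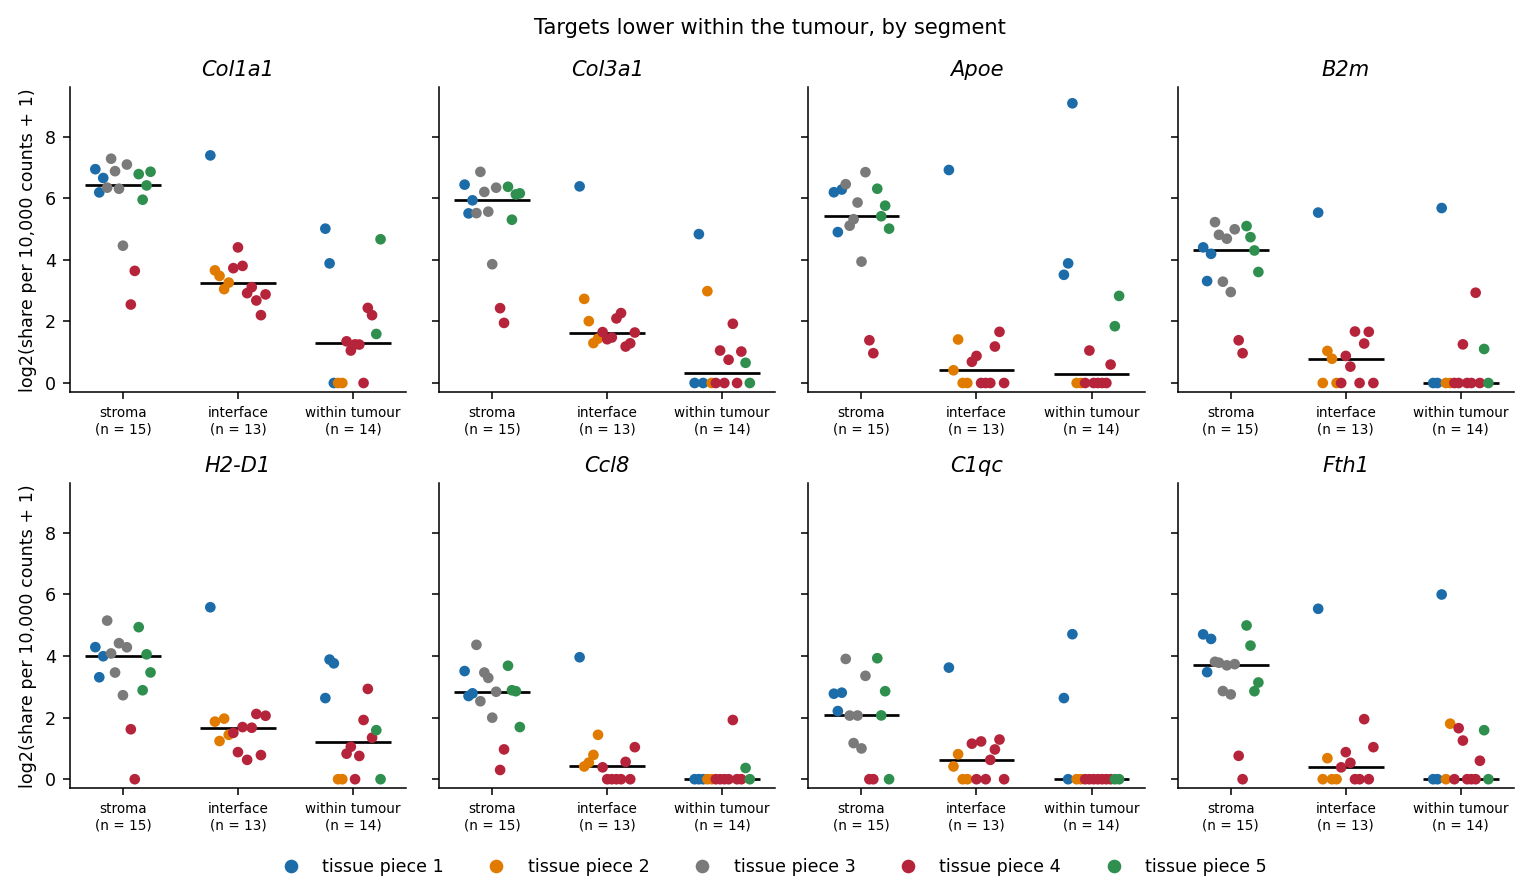
Each point is a segment, coloured by tissue piece; the y axis is log2(share per 10000 counts + 1) and the bar is the class median, for stroma (15), interface (13) and within tumour (14). For Col1a1, Col3a1, Apoe and B2m the stroma segments lie high except the 2 of piece 4. C1qc is low in some stroma segments of other pieces too. The single tumour segment of piece 1 at the top of the Apoe panel holds a share of 540.2.

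Apoe, the apolipoprotein of macrophages and of lipid transport (chromosome 7, 19696244 to 19701310), was above 0 in all 15 stroma segments, from 0.955 to 114 with a median of 41.6. Within the tumour 7 of 14 segments were at 0, the median was 0.257, and 1 segment held 540.2 while the next highest held 13.8. The difference was -4.43 ± 0.53 (limma adjusted p = 1.8e-11). The classes overlapped, because 6 tumour segments lay at or above the lowest stroma segment. Without the segment at 540.2 the difference was -4.53. As differences of means with no depth covariate, the values were -0.30 inside piece 1, which holds that segment, -0.94 inside piece 4 and -3.29 inside piece 5. In piece 1 the tumour segments had depths of 796 to 1921 counts and the stroma segments of 30779 to 96548. In piece 4 the stroma segments held Apoe shares of 0.955 and 1.62, and the tumour segments 0 to 1.08. With piece as a fixed block the Apoe difference of -2.34 did not pass (limma adjusted p = 0.221).

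That tumour segment, number 8 of its class in file order, stood alone among the 29. It was the shallowest, with 796 counts from 6 nuclei. The macrophage metalloelastase Mmp12 made up 50 of its counts, a share of 628 where no other segment of either class exceeded 26.1. It also held the highest share among the 29 of the lysosomal genes Psap (30 counts), Ctss (12), Ctsb (8), Ctsd (7) and Lgmn (5), of the secreted Spp1 (8), of ferritin Ftl1 (6) and Fth1 (5), and of the keratins Krt14 (8) and Krt6a (6). Mmp12, Ctsb, Ctsd, Lgmn and Spp1 are named here after their values were seen. Leaving the segment out gave 116 called targets, 24 higher and 92 lower, and all of the 100 were among them.

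Macrophage genes were lower within the tumour in part. Of 18 macrophage identity and complement genes, 13 were tested, 3 were lower and 10 did not pass, with a median of -0.61. C1qc, a chain of complement C1q, was at 0 in 12 of 14 tumour segments, had a stromal median of 3.20 and differed by -2.01 ± 0.44 (limma adjusted p = 0.000709). Its partner C1qa had a difference of -1.36 (limma adjusted p = 0.0595) and C1qb of -1.03 (limma adjusted p = 0.185, chosen after its values were seen). Without tumour segment 8 the C1qa difference was -1.45 (limma adjusted p = 0.0077). Without piece 4 neither C1qc, at -1.82 (limma adjusted p = 0.301), nor C1qa, at -1.14 (limma adjusted p = 0.609), passed. Inside pieces 1 and 5 the C1qc differences were -0.15 and -2.21, and piece 4 held 0 counts of C1qc in either class. Csf1r, the receptor for the macrophage growth factor, differed by -1.34 and the protease Ctss by -2.14. Summed over the list the share was 5.25 to 116 in the stroma, with a median of 32.01, and 2.49 to 327 within the tumour, with a median of 7.58 against a panel average of 9.02. The highest tumour value was that of segment 8, and the next highest was 13.8.

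Lysosomal and iron-handling genes were also lower in part. Of 15 secreted and lysosomal proteases and their partners 12 were tested. All 12 had negative differences, with a median of -1.17 against -0.03 for all tested targets. The 4 that passed were the cystatin Cst3 (-1.69), the membrane protein Lamp1 (-1.29), the saposin precursor Psap (-1.79) and progranulin Grn (-1.56). Without piece 4 none of these 4 passed (limma adjusted p of 0.245 to 0.546). Inside pieces 1, 4 and 5 Psap differed by 0.09, -0.12 and -1.54, and Grn by -0.20, -0.14 and -2.13. Of 14 iron and heme genes 7 were tested and 3 were lower. Fth1, the ferritin heavy chain, had 537 counts in the stroma and 17 within the tumour, of which 5 were in segment 8, and differed by -2.68 ± 0.51 (limma adjusted p = 6.58e-05). Hp, the haemoglobin-binding haptoglobin, had 408 and 2 counts and differed by -2.73. Ftl1, the light chain, differed by -1.62. Inside piece 4 the values were 0.12 for Fth1 and 0.16 for Ftl1. Of 16 genes listed for lipid handling of macrophages 9 were tested and 2 were lower. These were Apoe and the fatty acid binding protein Fabp4 (-1.67, with 292 and 4 counts). The highest stroma shares of Hp (53.4) and Fabp4 (41.1) lay in piece 3, and which cells held them was not tested.

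Of the genes of antigen presentation, the class I chains B2m, H2-D1 and H2-K1 fell, and so did some of class II. B2m, the light chain of class I (chromosome 2, 122147687 to 122153082), was above 0 in all 15 stroma segments, from 0.955 to 36.3 with a median of 18.7. Within the tumour it was above 0 in 4 of 14 segments, the highest being segment 8 at 50.3 and the next 6.63. The difference was -3.64 ± 0.51 (limma adjusted p = 1.23e-08). The heavy chains followed, H2-D1 at -2.47 ± 0.50 (limma adjusted p = 0.000185; stromal median 14.9, tumour median 1.31) and H2-K1 at -2.12 ± 0.45 (limma adjusted p = 0.000365; medians 6.16 and 0). Heavy chains of class I are near-identical in sequence, and the sources used here do not say how the probes tell them apart. Of 15 class I presentation genes on the panel 7 were tested, 3 were lower and the median was -0.53. Inside piece 4 the differences were 0.45 for H2-D1, 0.18 for H2-K1 and -0.58 for B2m, all from few counts. H2-D1 had 10 counts in the 7 tumour segments and 9 in the 2 stroma segments there. H2-K1 had 10 and 8, and B2m had 4 and 9.

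Of 11 class II genes 5 were tested and 3 passed. All 5 were negative, with a median of -1.51 against -0.03 for all tested targets. Cd74, the invariant chain, had 132 counts over the stroma and 10 within the tumour, of which 3 were in segment 8, and differed by -1.51 ± 0.45 (limma adjusted p = 0.0281). H2-Aa, an alpha chain, had 119 and 8 counts and differed by -1.68, and the third was Ctss, the protease that trims the invariant chain. The class II chains H2-Ab1 (-0.92; limma adjusted p = 0.182) and H2-Eb1 (-0.46; limma adjusted p = 0.475) did not pass and are named after their values were seen. Interferon-stimulated genes had 5 of 19 tested, none called, and a median of 0.08. No gene of these presentation lists passed with tissue piece as a fixed block.

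Among 24 chemokine ligands 10 were tested and 3 were lower. Ccl8, a ligand for monocytes and lymphocytes, was above 0 in all 15 stroma segments (238 counts) and in 2 of 14 tumour segments (2 counts), a difference of -2.64 ± 0.43 (limma adjusted p = 1.34e-06). Cxcl14 differed by -1.85 and Cxcl12, the ligand of Cxcr4, by -1.38. The median of the 10 was -0.15. The myeloid receptor Cd300ld3 was also lower, at -2.52 ± 0.49 (390 against 21 counts; limma adjusted p = 8.67e-05).

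Complement outside C1q and an adipocyte product were lower too. C4b, a component of the classical pathway, had 238 counts in the stroma and 8 within the tumour and differed by -2.33, C3 by -1.34 and the acute-phase inhibitor Serpina3n by -2.02; these 3 were chosen after their values were seen. Cfd, the adipocyte protease of the alternative pathway, had 404 and 3 counts and differed by -2.37. It was the only member called of 5 tested in the erythroid and adipocyte list, and its highest stroma segment held a share of 57.4.

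Some genes that most cells express were lower as well. Of 17 cytoskeletal and housekeeping genes on the panel 13 were tested and 5 passed. All 13 were negative, with a median of -0.77 against -0.03 for all tested targets. Tmsb4x, an actin-binding thymosin abundant in leukocytes, had medians of 18.9 in the stroma and 6.26 within the tumour and differed by -2.49 ± 0.48 (limma adjusted p = 8.02e-05). Vim, an intermediate filament of mesenchymal cells, differed by -2.17, the elongation factor Eef2 by -1.56, actin Actb by -1.43 and ubiquitin Ubb by -1.36. Ubb was above 0 in all 29 segments, from 6.0005 to 40.01 in the stroma and from 2.75 to 27.5 within the tumour. Inside pieces 1, 4 and 5 the Tmsb4x differences were -0.03, -0.56 and -1.09, and those of Ubb were 0.28, -0.41 and -0.37. With piece as a fixed block neither passed, at -0.98 for Tmsb4x and -0.55 for Ubb (limma adjusted p = 0.992 for each). The cytosolic ribosomal proteins did not share this: 77 of 81 were tested, none was called, and the median was -0.21. Their summed share was 140 to 323 in the stroma and 168 to 510 within the tumour. Of 25 tested subunits of the respiratory chain 1 was lower, a fraction near the 3.7% of all tested targets that were lower. It was Atp5a1 at -1.17, with 78 counts in the stroma and 8 within the tumour. Of 8 tested glycolytic and hypoxia genes none was called. The part of these general genes in the other falls was not tested.

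**Figure D3:**
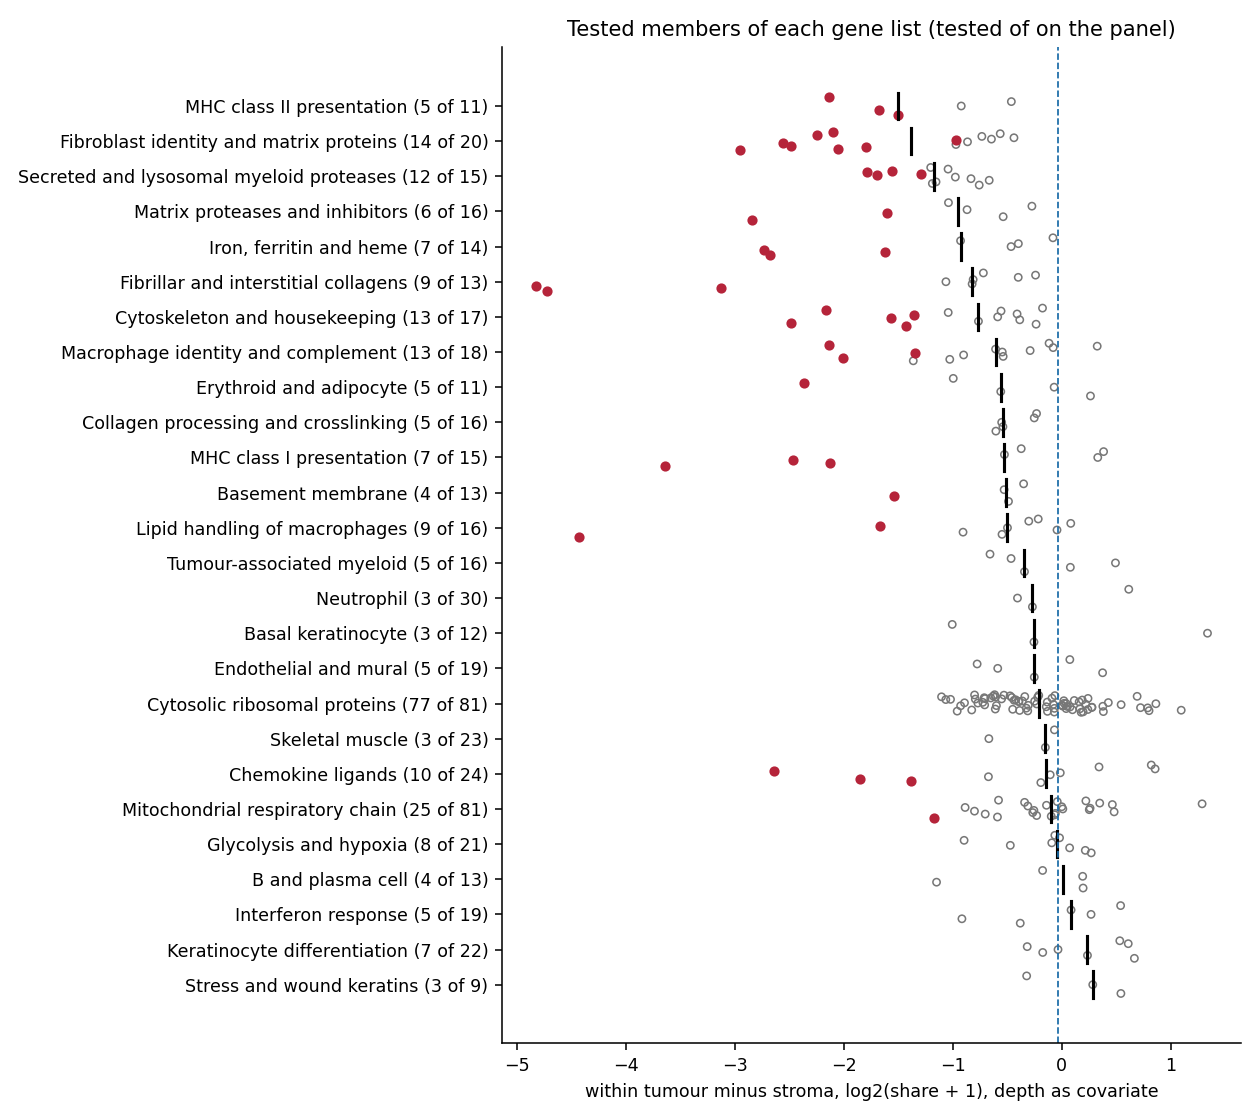
Each point is a tested member of a gene list, with the number tested and on the panel in brackets; the x axis is within tumour minus stroma in log2(share + 1), red points have a limma adjusted p under 0.05, black bars are list medians and the dashed line is the median of all tested targets at -0.03. Red points lie to the left for the collagen, matrix, macrophage, lysosomal and presentation lists, and lists with under 3 tested members are not drawn.

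The rises were fewer and of another kind. Clec2j, a C-type lectin gene that RefSeq annotates as a pseudogene (chromosome 6, 128655105 to 128657027), had shares of 0 to 128 within the tumour with a median of 46.7, and of 0 to 37.7 in the stroma with a median of 7.46. The difference was 2.38 ± 0.46 (limma adjusted p = 8.67e-05). Sesn3, a stress-induced sestrin, had medians of 28.7 and 4.78 and a difference of 1.99 ± 0.46 (limma adjusted p = 0.00178). Both were highest in piece 4 whatever the class: the 2 stroma segments there held 30.5 and 37.7 for Clec2j, and the next highest stroma segment held 21.5. Inside pieces 1, 4 and 5 the Clec2j differences were 2.22, 1.08 and -0.34, and those of Sesn3 were 0.30, 0.74 and 1.20. Without piece 4 neither passed, at 1.27 (limma adjusted p = 0.592) and 0.98 (limma adjusted p = 0.64).

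Chil4, a secreted chitinase-like protein, had 62 counts within the tumour and 21 in the stroma, although the stroma was deeper. Its shares were 0 to 20.7 within the tumour with a median of 3.91, and 0 to 2.23 in the stroma with a median of 0.104, and the difference was 1.79 ± 0.43 (limma adjusted p = 0.00284). The tumour segments divided by piece. All 3 of piece 1 were at 0, those of piece 5 held 0 and 0.288, and those of pieces 2 and 4 held 0.688 to 20.7. Inside piece 4 the difference was 1.61, and inside pieces 1 and 5 it was -0.14 and -0.52. Without piece 4 it was 1.01 and did not pass (limma adjusted p = 0.51). Chil4 was the member called of 2 tested chitinase family genes, of 7 on the panel.

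Sprr2i, a small proline-rich protein of the cornified envelope, was above 0 in all 14 tumour segments, from 4.63 to 37.7 with a median of 10.6, and had a median of 3.0002 in the stroma with a highest value of 9.603. It differed by 1.62 ± 0.48 (limma adjusted p = 0.0285) and was positive inside all 3 pieces that hold both classes, at 2.61, 1.03 and 1.36. Without piece 4 its difference was 2.02 and did not pass (limma adjusted p = 0.198). The remaining rises named by the rule were 1700129C05Rik (1.62), Cuzd1 (1.47), Lsm14a (1.45), Gm52799 (1.42), Actrt3 (1.35), Ggt6 (1.19), 2310061I04Rik (1.15) and Chic2 (0.63). Each of the first 7 had between 22 and 56 counts within the tumour in all. Chic2 was abundant in every segment, from 62.8 to 183 within the tumour and 22.7 to 115 in the stroma.

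The 5 rises outside the rule for named genes were Matk, Olfr303, Olfr63, LOC118568634 and Gm52800, chosen after their values were seen. Gm52800, a predicted gene, was above 0 everywhere, from 226 to 616 within the tumour and 81.3 to 384 in the stroma, and differed by 0.51 ± 0.10 (limma adjusted p = 6.58e-05). LOC118568634 differed by 0.63 ± 0.15 and is 1 of 3 targets of the panel whose recovered counts were not whole numbers. Summed over the 17 rises the share was 465 to 1165 within the tumour and 156 to 685 in the stroma. Counted per 100 nuclei and with no depth covariate, 0 targets passed as higher and 777 as lower, and the median difference of all tested targets was -0.86. On shares with no depth covariate 18 were higher and 142 lower.

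**Figure D4:**
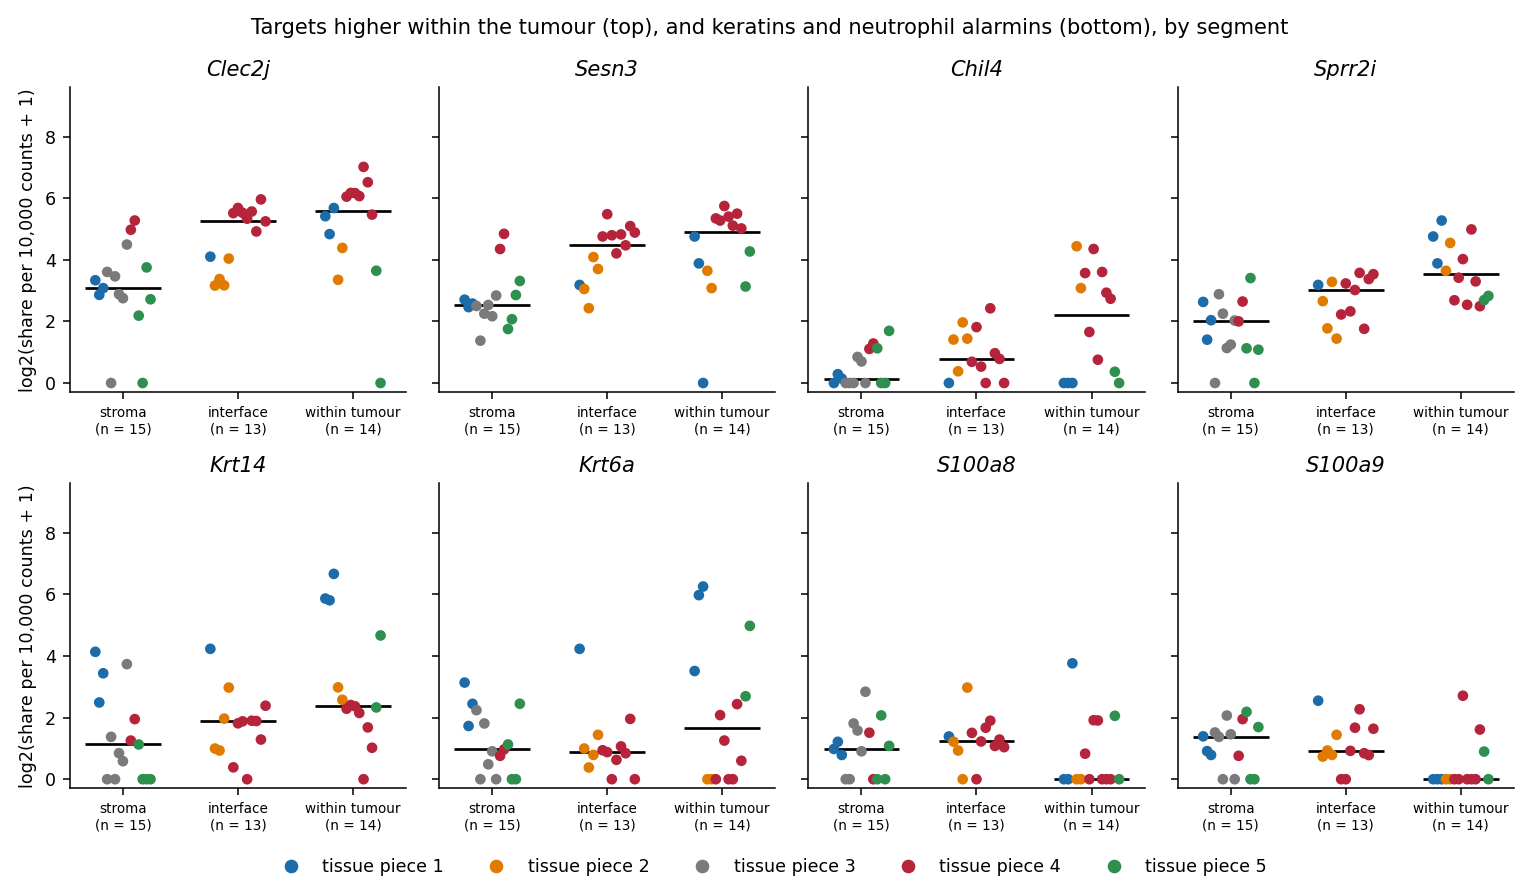
Each point is a segment, coloured by tissue piece; the y axis is log2(share per 10000 counts + 1) and the bar is the class median. Clec2j and Sesn3 (top row) are high in piece 4 in all 3 classes, Krt14 and Krt6a are highest in the tumour segments of piece 1, and S100a8 and S100a9 have a median of 0 within the tumour, with single segments up to shares of 12.6 and 5.54.

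Keratins bear on the label within tumour. Krt14, the keratin of basal keratinocytes, had a median of 4.23 within the tumour (0 to 101) and of 1.18 in the stroma (0 to 16.6), and its difference of 1.34 ± 0.53 did not pass (limma adjusted p = 0.143). It was 55.02 to 101 in the 3 tumour segments of piece 1 and 0 to 4.31 in the 7 of piece 4. Without piece 4 the difference was 2.95 (limma adjusted p = 0.0251). Krt5, its partner, differed by -0.26 (limma adjusted p = 0.839) and the wound keratin Krt6a by 0.54 (limma adjusted p = 0.64). None of 3 tested basal, 3 tested stress and 7 tested differentiation genes was called, with medians of -0.26, 0.28 and 0.24. The summed share of 22 differentiation genes was 6.63 to 186 within the tumour, with a median of 15.9, and 3.08 to 37.7 in the stroma, with a median of 11.3, where the panel average would be 11.02. Keratinocyte genes were above the panel average in some tumour segments, those of piece 1 above all, and near it in most.

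The label neutrophil was not matched by a strong neutrophil signal in either class. The 30 neutrophil genes on the panel summed to 5.21 to 25.1 within the tumour, with a median of 15.8, and to 9.07 to 21.3 in the stroma, with a median of 12.8, against a panel average of 15.03. Elane and Wfdc21 were at 0 in all 14 tumour segments. Of the 30, 3 were tested and none was called. S100a8 had 19 counts within the tumour and 48 in the stroma and differed by -0.27 ± 0.38 (limma adjusted p = 0.797). S100a9 had 11 and 59 counts and differed by -0.41 ± 0.35 (limma adjusted p = 0.592). Ly6g had 8 and 23 counts and was not tested. Per 100 nuclei and with no covariate S100a9 passed as lower, at -1.54 (limma adjusted p = 0.00642); over its alternatives the adjusted p ran from 0.00642 to 0.992.

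Other cells were seen in single segments. Genes of B and plasma cells summed to 702 in stroma segment 3 of piece 1, from 6776 counts, and to 0 to 110 in the other stroma segments and 0 to 13.8 within the tumour. Skeletal muscle genes summed to 100.2 in stroma segment 13 of piece 3 and to at most 32.5 in the others, while the tumour segments held 0 to 11.2 against a panel average of 11.5. Of 4 tested B-lineage, 3 tested muscle, 5 tested vessel and 1 tested T-cell genes none was called.

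Against the interface, the tumour segments differed by no target past the threshold. Of 3043 targets tested by the same filter 0 passed, or 0%, in limma with depth as a covariate, and 133 had an unadjusted p under 0.05. Both comparisons share the tumour segments. Col1a1 was 3.60 to 167 at the interface with a median of 8.57, and its difference within tumour minus interface was -2.38 ± 0.57 (limma adjusted p = 0.159). For Col3a1 it was -1.54 ± 0.51, for Apoe -0.96 ± 0.57, for B2m -0.94 ± 0.47, for Clec2j 0.55 ± 0.44 and for Chil4 1.43 ± 0.51, each with a limma adjusted p of 0.984 or more. The interface has 8 of its 13 segments in piece 4 and 1 in piece 1. The interface segment of piece 1 held the highest interface share of Col1a1, Col3a1, Apoe and B2m. A missed threshold does not show that the classes are alike: Col1a1 passed in 7 alternative settings.

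**Figure D5:**
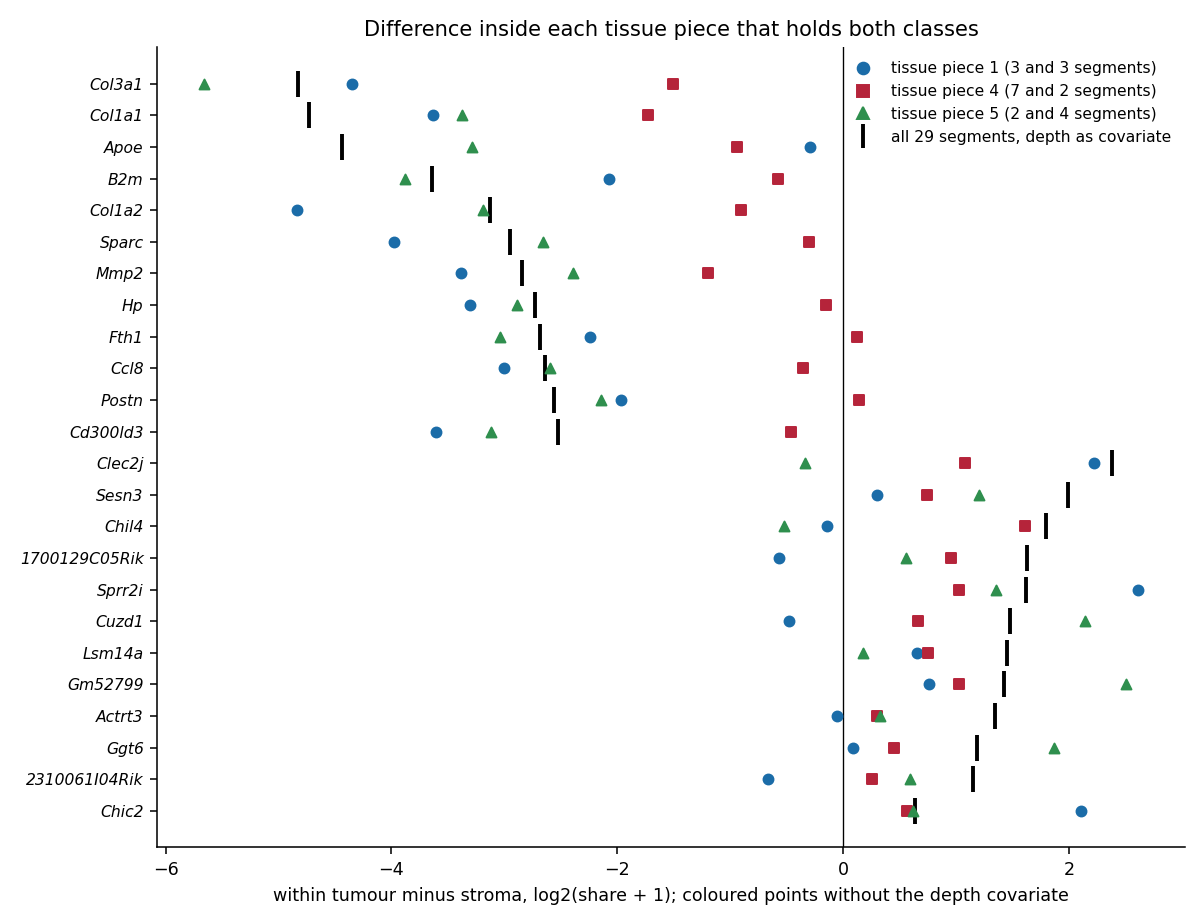
For the 12 falls and 12 rises named by the rule, the x axis is within tumour minus stroma in log2(share + 1). Coloured points are the differences of means inside piece 1 (3 and 3 segments), piece 4 (7 and 2) and piece 5 (2 and 4), with no depth covariate, and black bars are the fit over all 29 segments; the points of piece 4 lie nearest 0 for most falls.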

How the data were processed

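RNA tags of a GeoMx mouse whole transcriptome panel were measured in 89 segments, of which the 29 compared here and 13 interface segments are used. The deposited values are a normalised signal; the deposited annotation gives the authors' upper-quartile factor and negative-probe geometric SD as ratios and the negative-probe level as a signal. The submitters' processing notes name Seurat and the build mm10; aligner, counter and versions are not given in the sources used here.

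Counts were recovered as signal times factor: 99.99% of values were whole within 1e-06, 3 of 19962 targets were not, and the smallest count was 1, taken as the floor. At the floor were 78.9% of values within the tumour and 56.9% in the stroma. Count models were planned and not run: the deposited signal, pooled over segments with different factors, is not made of multiples of a single step, which the rule set for using them required, although the recovered values are nearly all whole. The limit of quantitation was the larger of 2 counts and the negative-probe geometric mean times its geometric SD to the power 2. Shares per 10000 counts plus a pseudocount of 1 were fitted with limma 3.58.1 (two-sided, lmFit and a trended eBayes; R 4.3.3) and adjusted by Benjamini-Hochberg over all tested targets. Segment measures used permutation tests (100000 resamples, SciPy 1.17.1) of mean log2 values, adjusted over 6 measures. Tissue pieces are single-linkage groups of scan coordinates at 8000 units; the longest link inside a piece was 6281 and the shortest between pieces 10623. The fit was also run on simulated counts with known changes. These were drawn without tissue pieces, so that run does not bear on the uneven mix of class and piece.

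Named genes were, among called targets with a mean share above the median of tested targets, the 12 largest falls and 12 largest rises, called members of 31 gene lists, and 13 fixed genes. The members and lists were chosen with earlier results of these data known. Alternatives varied the scale, covariate, pseudocount, filter, depth, block and segments. Of the targets 19822 matched a RefSeq symbol.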

Additional observations from a re-analysis of the deposited data

How the results depend on the processing

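The count of 100 targets called between tumour and stroma was 152 on the deposited signal with the depth covariate, 191 without it, and 160 on shares without the covariate. It was 58 of 8276 with a filter of 10% of segments, 31 of 243 with 50% and 37 of 19959 with no filter, where the number of targets tested changes by construction. It was 9 after thinning each segment to 1000 counts, which left out tumour segment 8 and kept 13 of 14, 156 in a fit over all 89 segments, 2 with tissue piece as a fixed block, 59 without piece 3, 28 without piece 4 and, in a setting chosen after seeing the data, 777 per 100 nuclei with no depth covariate. The fixed-block fit held only the segments of pieces 1, 4 and 5. The cause of these changes was not tested. The other 11 settings gave 70 to 138, 4 of them chosen after seeing the data. Col1a1 and Col3a1 were lower and called in all 23 alternatives. Against the interface, the count of 0 became 1 (Col1a1) on the deposited signal with and without the covariate, with a 50% filter, over all 89 segments, without piece 1 and without segments under 2000 counts, and 4 on shares without the covariate.

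Inside single pieces, on differences of means with no depth covariate, the sign turned for 11 of the 100 called targets in piece 4, 10 in piece 1 and 3 in piece 5. Among those named in the text these were, in piece 4, Fth1 0.12, Postn 0.14, Fabp4 0.23, H2-K1 0.18, H2-D1 0.45, Cfd 0.21, Ftl1 0.16, Cst3 0.0270; in piece 1, Chil4 -0.14, 1700129C05Rik -0.57, Cuzd1 -0.48, Actrt3 -0.0596, 2310061I04Rik -0.66, Ubb 0.28, Psap 0.0903; and in piece 5, Clec2j -0.34, Chil4 -0.52, C3 0.0149. The values of piece 4 rest on few counts, such as 4 in the tumour and 3 in the stroma for Fth1, and 16 and 12 for Ftl1. Per 100 nuclei with no covariate the sign of Chic2 turned (-0.19).

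For the segment measures, the difference of medians was -1.27 for depth and -0.10 for the negative-probe level, neither passing, and 0.18 for nuclei, a turned sign. Without piece 1 depth (-0.53), area (-0.996), depth per nucleus (-0.92) and the negative-probe level (-0.16) no longer passed and nuclei turned to 0.39. Without piece 4 the negative-probe level (-0.34) did not pass, and the number of targets above the limit of quantitation passed at -1.71, as it did without piece 5 at -1.39.

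The planned count models, edgeR and DESeq2, were not run, because the deposited signal pooled over segments with different factors is not made of multiples of a single step, so how the calls depend on a count model is not known. The labels give the segments no replicate numbers to pair by; the fit with tissue piece as a block, given above, is the matched comparison that was run. Depth limits the tumour class most: its shallowest segment has 796 counts, so targets at a share of a few per 10000 are often at 0 there by counting alone. Animals and tumours are not named, and class and tissue piece are unevenly mixed, so their parts in the differences cannot be fully told apart.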

Other observations

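The panel holds a target for the red fluorescent reporters mCherry/tdTomato, named here after its values were seen. Its share was 0 to 15.5 per 10000 counts within the tumour with a median of 6.88, and 0 to 9.23 in the stroma with a median of 2.09. The difference was 0.77 ± 0.48, which did not pass (limma adjusted p = 0.43). The labels do not say which cells, if any, carry such a reporter.

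Further targets lower within the tumour that belong to none of the gene lists include the antioxidant Gpx3 (-2.24), the follistatin-like Fstl1 (-2.14), glutamine synthetase Glul (-1.94), the Fc receptors Fcgrt (-1.77) and Fcgr2b (-1.72), and the phagocytosis bridge proteins Gas6 (-1.56) and Mfge8 (-1.17). They are among 58 of the 100 called targets outside the lists, and were named after their values were seen.

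The deepest tumour segment, number 13 of its class, held 34772 counts. Without it 90 targets were called, 18 higher and 72 lower, of which 83 were among the 100.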
